A study of Mus musculus with 36 samples.

Results

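The genes described here set, remove and read histone acetylation: 40 mouse genes, chosen by name from a list of histone acetyltransferases, histone deacetylases, bromodomain proteins and their cofactors, of the 21887 protein-coding genes on assembled chromosomes. For each gene, the bases covered by peaks of acetylated histone H3 lysine 9 (H3K9ac) or lysine 27 (H3K27ac) were counted over the gene body and the 2 kb on either side of it. The chromatin came from the dorsal hippocampus of male mice aged 8 weeks. All mice had received a viral vector in the dorsal hippocampus: in the knockdown groups the AAV2/9 vector U6.shACSS2.CMV.EGFP, which carries a short hairpin RNA against Acss2, and in the control groups a control vector whose cassette is not described in the sources used here. Within each vector, mice either received an ethanol dose of 2 g per kg into the peritoneum, diluted to 20% with saline, or were left untreated, so the 4 conditions are ethanol-treated knockdown, untreated knockdown, ethanol-treated control and untreated control. No sort of the cells that took up the vector is described, and a short hairpin RNA acts on messenger RNA, so peak lists do not check the knockdown. Sodium butyrate, an inhibitor of several of the deacetylases named below, was in the nuclei buffers of every group. Each of the 8 lists, 1 for each mark and condition, stands for 3 replicates. No value therefore has a replicate error, no test between conditions was possible, and the sequencing depth behind the lists is unknown. In bulk tissue, fewer marked cells and less mark per cell cannot be told apart.

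Histone acetylation is written by acetyltransferases, which take the acetyl group from acetyl-CoA, and erased by deacetylases, of which the zinc-dependent classes I, II and IV are called HDACs and the NAD-dependent class is called sirtuins. Bromodomain proteins bind acetylated lysines, and coactivators and corepressors bring writers and erasers to chosen genes. ACSS2 makes acetyl-CoA from acetate, a product of ethanol oxidation, so the writers among these genes use the acetyl-CoA that the vector and the injection were meant to alter. H3K9ac and H3K27ac both mark active promoters, and H3K27ac also marks active enhancers, including enhancers inside genes.

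The lists differed in length, so values per gene are set beside those of all genes below. H3K9ac lists held 42120 peaks over 24.1 Mb in ethanol-treated knockdown mice and 38484 over 21.7 Mb in untreated knockdown mice, against 31042 over 16.1 Mb in ethanol-treated control mice and 38235 over 22.6 Mb in untreated control mice. The corresponding H3K27ac lists covered 57.4 Mb and 47.8 Mb in ethanol-treated and untreated knockdown mice, against 38.1 Mb and 40.1 Mb in ethanol-treated and untreated control mice. The tissue label was checked against marker genes: all 5 markers of hippocampal excitatory neurons (Neurod6, Prox1, Wfs1, Camk2a and Slc17a7) had H3K27ac in every list. Of 5 genes of other tissues, Alb, Ins2 and Krt5 had no peak of either mark, and Myh6 had 139 bp of H3K27ac in ethanol-treated knockdown mice alone. The muscle gene Actn3 had 1120 to 1372 bp of H3K27ac and 792 to 1362 bp of H3K9ac. Of the inhibitory neuron markers, Gad1 had both marks in every list and Slc32a1 had no peak. Gad2 had 174 bp of H3K27ac in ethanol-treated knockdown mice alone. A missing peak therefore does not show a missing cell type.

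Nearly all of these genes carried both marks at a start site. RefSeq promoter windows gave 49 start sites for 34 of the 40 genes; Kat6a, Hdac1, Hdac3, Hdac10, Brd8 and Ncoa3 are the others. A peak lay within 1 kb of a listed start for 33 of the 34 genes in 7 of the 8 lists and for 32 in the H3K9ac list of ethanol-treated control mice, where Hdac6 joined Brdt without one. Over all 17492 genes with a listed start, the share was between 57.8% and 60.6% for H3K9ac and between 62.3% and 64.6% for H3K27ac. Only 4 of the 49 starts had no peak of either mark within 1 kb in any list: the downstream start of Kat2b, the internal start of Ncor1, the upstream start of Hdac9 and the one start of Brdt.

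The sequences around marked and unmarked starts show how these promoters differ in letters. Each is 300 bases from RefSeq on GRCm38.p6, from 250 bases before to 50 bases after the start, 5′ to 3′ on the gene's own strand, with CpG dinucleotides in capitals. Ep300 is shown as a start marked in all 8 lists (chr15:81585964-81586263, plus strand, 30 CpG) and Hdac6 as the start that lacked H3K9ac in 1 list (chrX:7947840-7948139, minus strand, 20 CpG). Ncor1 and Hdac9 are shown as pairs of a marked and an unmarked start of the same gene. The marked Ncor1 start lies at chr11:62457283-62457582 (36 CpG) and the unmarked one at chr11:62438466-62438765 (2 CpG), both on the minus strand. For Hdac9 the marked start lies at chr12:34528840-34529139 (3 CpG) and the unmarked one at chr12:34917046-34917345 (0 CpG), also on the minus strand. Brdt is shown as the gene with no marked start (chr5:107330944-107331243, plus strand, 23 CpG).
Ep300: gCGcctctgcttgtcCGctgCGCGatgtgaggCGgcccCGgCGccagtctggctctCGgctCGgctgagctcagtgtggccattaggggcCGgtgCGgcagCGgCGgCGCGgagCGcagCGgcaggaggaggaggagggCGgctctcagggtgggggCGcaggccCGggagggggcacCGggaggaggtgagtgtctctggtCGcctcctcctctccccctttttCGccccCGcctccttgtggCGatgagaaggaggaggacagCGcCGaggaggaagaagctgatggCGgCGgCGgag
Hdac6: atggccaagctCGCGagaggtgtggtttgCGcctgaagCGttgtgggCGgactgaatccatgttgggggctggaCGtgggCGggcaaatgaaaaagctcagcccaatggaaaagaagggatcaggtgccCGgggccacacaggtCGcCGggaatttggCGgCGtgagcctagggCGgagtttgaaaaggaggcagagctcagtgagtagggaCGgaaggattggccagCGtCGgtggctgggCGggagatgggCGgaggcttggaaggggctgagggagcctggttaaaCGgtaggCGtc
Ncor1, marked start: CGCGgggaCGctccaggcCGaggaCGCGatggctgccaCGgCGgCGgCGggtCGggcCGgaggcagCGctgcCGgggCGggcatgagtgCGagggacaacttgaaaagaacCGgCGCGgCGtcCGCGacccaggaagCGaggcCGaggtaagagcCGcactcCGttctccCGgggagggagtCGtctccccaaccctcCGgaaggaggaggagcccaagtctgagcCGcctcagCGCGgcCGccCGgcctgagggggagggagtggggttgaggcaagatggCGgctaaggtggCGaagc
Ncor1, unmarked start: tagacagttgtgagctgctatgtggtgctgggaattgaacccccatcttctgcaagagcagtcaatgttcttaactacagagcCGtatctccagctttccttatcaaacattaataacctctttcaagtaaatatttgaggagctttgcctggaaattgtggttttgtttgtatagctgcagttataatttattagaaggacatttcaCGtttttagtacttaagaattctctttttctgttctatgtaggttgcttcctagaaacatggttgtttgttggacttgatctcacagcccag
Hdac9, marked start: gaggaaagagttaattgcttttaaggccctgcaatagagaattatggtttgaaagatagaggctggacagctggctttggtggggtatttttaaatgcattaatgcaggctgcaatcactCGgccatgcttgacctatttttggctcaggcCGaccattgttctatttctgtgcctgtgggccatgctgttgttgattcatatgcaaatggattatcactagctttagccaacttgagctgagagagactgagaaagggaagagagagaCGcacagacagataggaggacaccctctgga
Hdac9, unmarked start: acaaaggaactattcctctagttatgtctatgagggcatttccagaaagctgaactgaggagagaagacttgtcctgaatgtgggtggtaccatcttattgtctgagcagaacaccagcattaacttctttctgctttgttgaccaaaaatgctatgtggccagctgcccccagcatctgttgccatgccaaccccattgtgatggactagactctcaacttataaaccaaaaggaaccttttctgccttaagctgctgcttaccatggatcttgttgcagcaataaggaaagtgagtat
Brdt, unmarked start: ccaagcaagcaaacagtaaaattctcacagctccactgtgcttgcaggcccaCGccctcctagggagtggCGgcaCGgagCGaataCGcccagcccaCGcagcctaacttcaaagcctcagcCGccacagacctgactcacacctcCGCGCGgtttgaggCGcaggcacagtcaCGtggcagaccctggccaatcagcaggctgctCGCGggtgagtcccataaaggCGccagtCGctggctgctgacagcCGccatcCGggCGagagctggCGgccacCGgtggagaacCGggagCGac
In the Ncor1 pair the marked start is the one dense in CpG. The marked start also had more CpG in the Hdac9 pair (3 against 0) and in Kat2b (11 against 6), by less. The marked Hdac9 start thus has almost as few CpG dinucleotides as its unmarked partner. Between genes the order did not always hold, since the unmarked Brdt start has more than the Hdac6 start. Across the 49 windows the median was 22 CpG dinucleotides and 62.0% G and C, against 13 and 56.3% over the 21263 windows of all genes. The median ratio of observed to expected CpG was 0.796, against 0.567 over all windows.

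Known promoter motifs were searched in the same windows on both strands, as letters only. GGGCGG, the GC box bound by SP proteins, was in 65.3% of the 49 windows and in 46.2% of all windows. CCGGAAG, an ETS core, was in 22.4% of them against 11.6%, among them windows of Kat5, Kat7, Kat8, Hat1 and Ncor1. CCAAT, the NF-Y box, was in 34.7% against 38.2%, and TATAAA, the TATA box, in 6.12% against 12.6%, in Hdac8, Hdac9 and Sin3b. TGACGTCA, the cAMP response element, was in none of the 49 windows and in 2.23% of all windows. These shares are descriptions of the letters, several windows of one gene overlap, and no test was made.

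The plot of covered bases by gene shows the 4 conditions for each gene and mark. Across the 40 genes the highest of the 4 lists was a median of 1.50 times the lowest for H3K9ac and 1.45 times for H3K27ac. The lowest H3K9ac value was that of ethanol-treated control mice for 34 genes, and the highest H3K27ac value that of ethanol-treated knockdown mice for 30 genes. These are the lists with the fewest and the most covered bases of their mark, and the 2 counts were made for the 40 genes only. Of all genes, 87.8% had less H3K9ac with ethanol than without in control mice. In ethanol-treated mice, 86.3% of all genes had more H3K27ac with the knockdown than with the control vector. Orders of conditions given for single genes are of covered bases without scaling, and the total covered bases of ethanol-treated knockdown mice were 1.50 times those of ethanol-treated control mice for each mark.

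**Figure D1:**
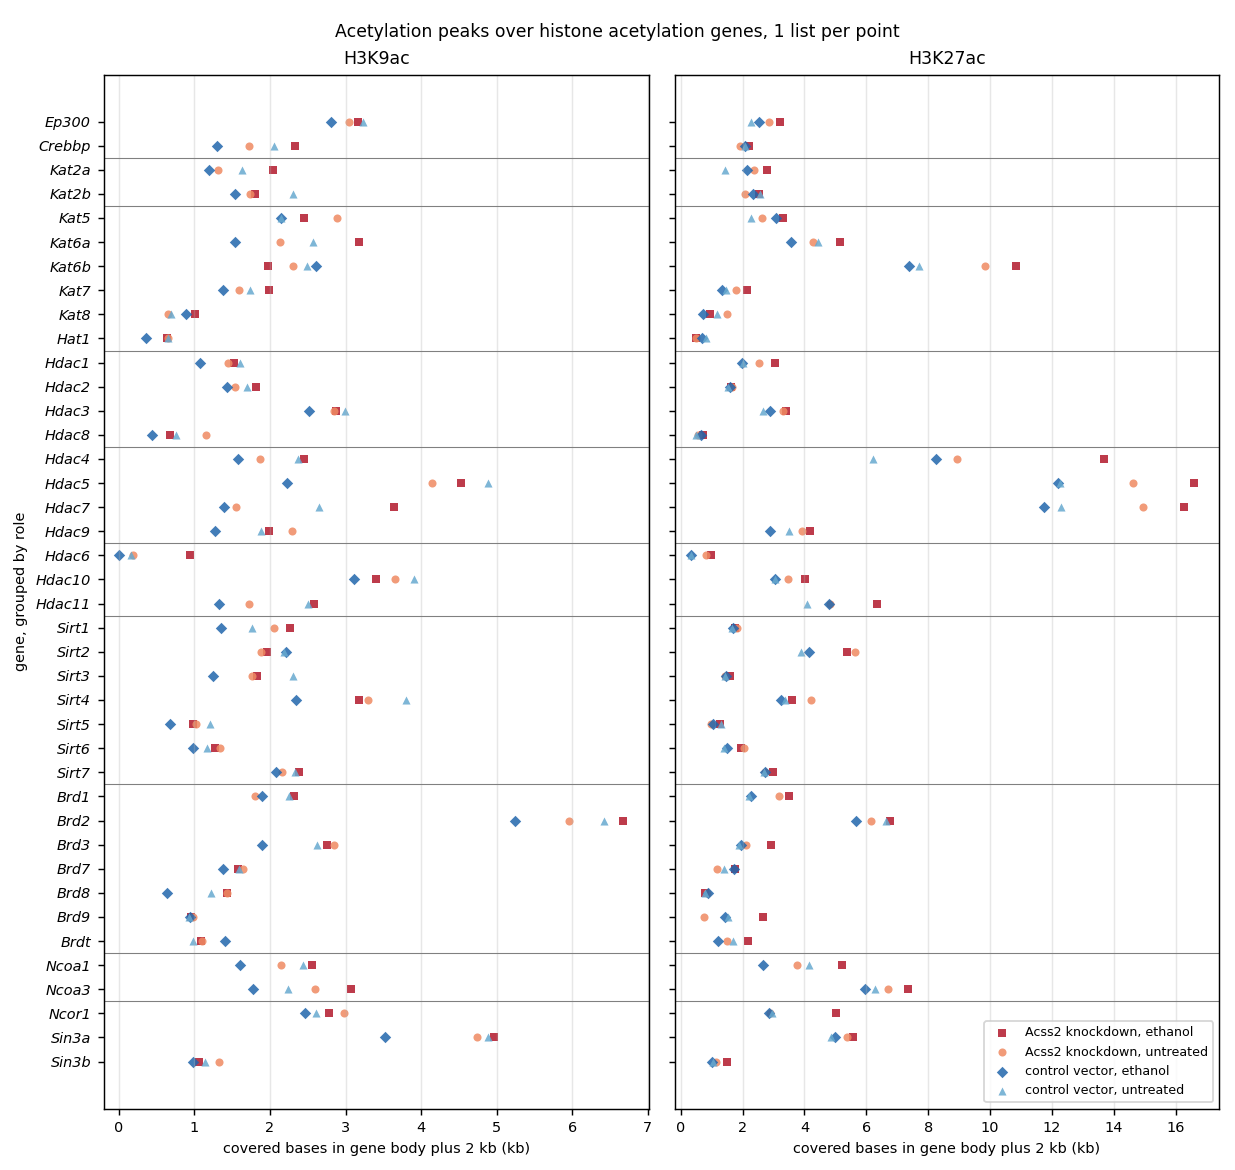
Covered bases (kb, linear axis) of H3K9ac (left) and H3K27ac (right) over the gene body plus 2 kb on either side, 1 point for each condition and no error since each list stands for 3 replicates. Hdac5 and Hdac7 lie farthest to the right for H3K27ac (11736 to 16600 bp), Brd2 leads for H3K9ac (5247 to 6677 bp), and Hdac6 has 0 bp of H3K9ac in ethanol-treated control mice.

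Among the writers, p300 and CBP are the paired enzymes that acetylate H3K27. H3K9ac over Ep300, the gene of p300, covered 3165 bp in ethanol-treated and 3045 bp in untreated knockdown mice, against 2809 bp in ethanol-treated and 3230 bp in untreated control mice. H3K27ac there covered 3197 bp in ethanol-treated and 2854 bp in untreated knockdown mice, against 2522 bp in ethanol-treated and 2269 bp in untreated control mice. The highest Ep300 value was 1.15 times the lowest for H3K9ac and 1.41 times for H3K27ac, both short of the 1.5-fold used here to call a difference. Most of it was a single peak across the start, from 81585393 to 81588289 on chromosome 15 in the H3K9ac list of untreated control mice, where its score, a strength given by the authors, stood at the 99.9 percentile of that list. Crebbp, the gene of CBP, had H3K9ac over 2327 bp in ethanol-treated and 1729 bp in untreated knockdown mice, against 1297 bp in ethanol-treated and 2048 bp in untreated control mice. For H3K27ac the Crebbp values were 2196 bp in ethanol-treated and 1923 bp in untreated knockdown mice, against 2093 bp in ethanol-treated and 2089 bp in untreated control mice. Its H3K9ac was lowest in ethanol-treated control mice and highest in ethanol-treated knockdown mice, whereas its 4 H3K27ac values lay within 1.14-fold of each other.

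GCN5 and PCAF, encoded by Kat2a and Kat2b, are the writers best known for H3K9ac. Kat2a had H3K9ac over 2042 bp in ethanol-treated and 1316 bp in untreated knockdown mice, against 1189 bp in ethanol-treated and 1636 bp in untreated control mice. Its H3K27ac covered 2777 bp in ethanol-treated and 2375 bp in untreated knockdown mice, against 2142 bp in ethanol-treated and 1419 bp in untreated control mice. Kat2a was the one gene whose H3K27ac was called higher in ethanol-treated than in untreated control mice (1.51-fold), and the untreated control list was its lowest for that mark. Kat2b had H3K9ac over 1801 bp in ethanol-treated and 1734 bp in untreated knockdown mice, against 1540 bp in ethanol-treated and 2300 bp in untreated control mice, and H3K27ac over 2516 bp in ethanol-treated and 2080 bp in untreated knockdown mice, against 2324 bp in ethanol-treated and 2561 bp in untreated control mice. Kat2b was highest in untreated control mice for both marks, as were Hat1 and Sirt5.

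The MYST writers and Hat1 spanned the widest range of levels among the writers. Kat6b, which encodes a MYST enzyme of the same complex family as Kat6a, carried the most H3K27ac of any writer, with 10850 bp in ethanol-treated and 9821 bp in untreated knockdown mice, against 7366 bp in ethanol-treated and 7688 bp in untreated control mice. H3K9ac over Kat6b ran the other way, with 1977 bp in ethanol-treated and 2299 bp in untreated knockdown mice, against 2606 bp in ethanol-treated and 2490 bp in untreated control mice, so that the ethanol-treated knockdown list was its highest for H3K27ac and its lowest for H3K9ac. Kat6a had H3K9ac over 3175 bp in ethanol-treated and 2127 bp in untreated knockdown mice, against 1537 bp in ethanol-treated and 2574 bp in untreated control mice, and its H3K27ac covered 5156 bp in ethanol-treated and 4292 bp in untreated knockdown mice, against 3558 bp in ethanol-treated and 4451 bp in untreated control mice. In Kat6a the ethanol-treated control list was the lowest for both marks and the ethanol-treated knockdown list the highest for both. Kat7, the gene of HBO1, had H3K9ac over 1986 bp in ethanol-treated and 1593 bp in untreated knockdown mice, against 1377 bp in ethanol-treated and 1731 bp in untreated control mice, and H3K27ac over 2150 bp in ethanol-treated and 1773 bp in untreated knockdown mice, against 1336 bp in ethanol-treated and 1453 bp in untreated control mice. Kat8, the gene of the H4 lysine 16 writer MOF, had only 653 to 1004 bp of H3K9ac. H3K27ac over Kat8 covered 956 bp in ethanol-treated and 1510 bp in untreated knockdown mice, against 714 bp in ethanol-treated and 1160 bp in untreated control mice, and both ethanol lists lay below their untreated lists. Hat1, whose enzyme acetylates newly made histones, was among the least covered, with H3K9ac over 643 bp in ethanol-treated and 653 bp in untreated knockdown mice, against 365 bp in ethanol-treated and 657 bp in untreated control mice. The H3K27ac of Hat1 covered 509 bp in ethanol-treated and 480 bp in untreated knockdown mice, against 688 bp in ethanol-treated and 818 bp in untreated control mice, lower in both knockdown lists than in either control list. Kat5, the gene of TIP60, ranged from 2143 to 2885 bp for H3K9ac and from 2276 to 3310 bp for H3K27ac.

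Among the erasers, the class I HDACs are nuclear enzymes held in corepressor complexes, and none of their H3K9ac lay more than 2 kb inside the gene. Hdac2 and Sirt1 were the steadiest for H3K27ac, each with a 1.09-fold span, and Hdac2 had 1626 bp in ethanol-treated and 1651 bp in untreated knockdown mice, against 1600 bp in ethanol-treated and 1514 bp in untreated control mice. Its H3K9ac covered 1821 bp in ethanol-treated and 1532 bp in untreated knockdown mice, against 1428 bp in ethanol-treated and 1692 bp in untreated control mice. Hdac3, whose enzyme works with the NCOR1 corepressor, had H3K9ac over 2868 bp in ethanol-treated and 2843 bp in untreated knockdown mice, against 2517 bp in ethanol-treated and 2992 bp in untreated control mice, and H3K27ac over 3403 bp in ethanol-treated and 3301 bp in untreated knockdown mice, against 2880 bp in ethanol-treated and 2670 bp in untreated control mice. The Hdac2 and Hdac3 values differed by at most 1.28-fold between any pair of lists of a mark. Hdac1 had H3K9ac over 1520 bp in ethanol-treated and 1443 bp in untreated knockdown mice, against 1073 bp in ethanol-treated and 1608 bp in untreated control mice, and H3K27ac over 3059 bp in ethanol-treated and 2547 bp in untreated knockdown mice, against 1993 bp in ethanol-treated and 2022 bp in untreated control mice. Both knockdown lists lay above both control lists for Hdac1 H3K27ac. Hdac8, on the X chromosome, had H3K9ac over 682 bp in ethanol-treated and 1152 bp in untreated knockdown mice, against 435 bp in ethanol-treated and 755 bp in untreated control mice, and its H3K27ac covered 718 bp in ethanol-treated and 561 bp in untreated knockdown mice, against 651 bp in ethanol-treated and 491 bp in untreated control mice. The untreated knockdown list stood highest for Hdac8 H3K9ac, at 2.65 times the lowest list.

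Class IIa HDACs (Hdac4, Hdac5, Hdac7 and Hdac9) shuttle between nucleus and cytoplasm, bind MEF2 transcription factors and are known in neurons as activity-regulated repressors. Hdac5 and Hdac7 had the broadest H3K27ac of the 40 genes in every list, and in all 4 class IIa genes most of it lay inside the gene, away from the ends. H3K27ac over Hdac5 covered 16600 bp in ethanol-treated and 14612 bp in untreated knockdown mice, against 12204 bp in ethanol-treated and 12270 bp in untreated control mice. This was 31.8% to 43.2% of the whole window, and placed Hdac5 between the 97.2 and 97.7 percentiles of all genes with H3K27ac. Hdac7 had H3K27ac over 16270 bp in ethanol-treated and 14935 bp in untreated knockdown mice, against 11736 bp in ethanol-treated and 12287 bp in untreated control mice. H3K27ac over Hdac4 covered 13675 bp in ethanol-treated and 8919 bp in untreated knockdown mice, against 8242 bp in ethanol-treated and 6229 bp in untreated control mice. Over the 4 lists, 77.5% of the H3K27ac of Hdac5, 94.3% of that of Hdac7 and 99.1% of that of Hdac4 lay more than 2 kb from either gene end. In Hdac4 this came as many short peaks, 42 in ethanol-treated and 26 in untreated knockdown mice, against 23 in ethanol-treated and 17 in untreated control mice. Hdac9, spread over 869.5 kb, had H3K27ac over 4176 bp in ethanol-treated and 3906 bp in untreated knockdown mice, against 2898 bp in ethanol-treated and 3513 bp in untreated control mice, all of it away from the ends. Listed starts inside Hdac4, Hdac7 and Hdac9 carried part of this H3K27ac. Within 1 kb of its one listed start, Hdac4 had 1433 to 1541 bp in the 4 lists. The marked Hdac9 start had 989 to 1311 bp.

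H3K9ac over the class IIa genes was narrower. Hdac5 had 4532 bp in ethanol-treated and 4148 bp in untreated knockdown mice, against 2225 bp in ethanol-treated and 4892 bp in untreated control mice. Hdac7 had 3643 bp in ethanol-treated and 1551 bp in untreated knockdown mice, against 1394 bp in ethanol-treated and 2652 bp in untreated control mice. In both, the ethanol-treated control list was the lowest, and in Hdac7 the ethanol-treated knockdown list was the highest. Hdac4 had 2446 bp in ethanol-treated and 1867 bp in untreated knockdown mice, against 1582 bp in ethanol-treated and 2373 bp in untreated control mice, and Hdac9 had 1983 bp in ethanol-treated and 2298 bp in untreated knockdown mice, against 1272 bp in ethanol-treated and 1881 bp in untreated control mice. None of the H3K9ac of Hdac4, Hdac7 or Hdac9 lay within 2 kb of an annotated gene end, but listed starts inside these genes carried it. Within 1 kb of its one listed start, Hdac4 had 1448 and 1178 bp of H3K9ac in ethanol-treated and untreated knockdown mice, against 1370 and 1394 bp in ethanol-treated and untreated control mice.

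**Figure D2:**
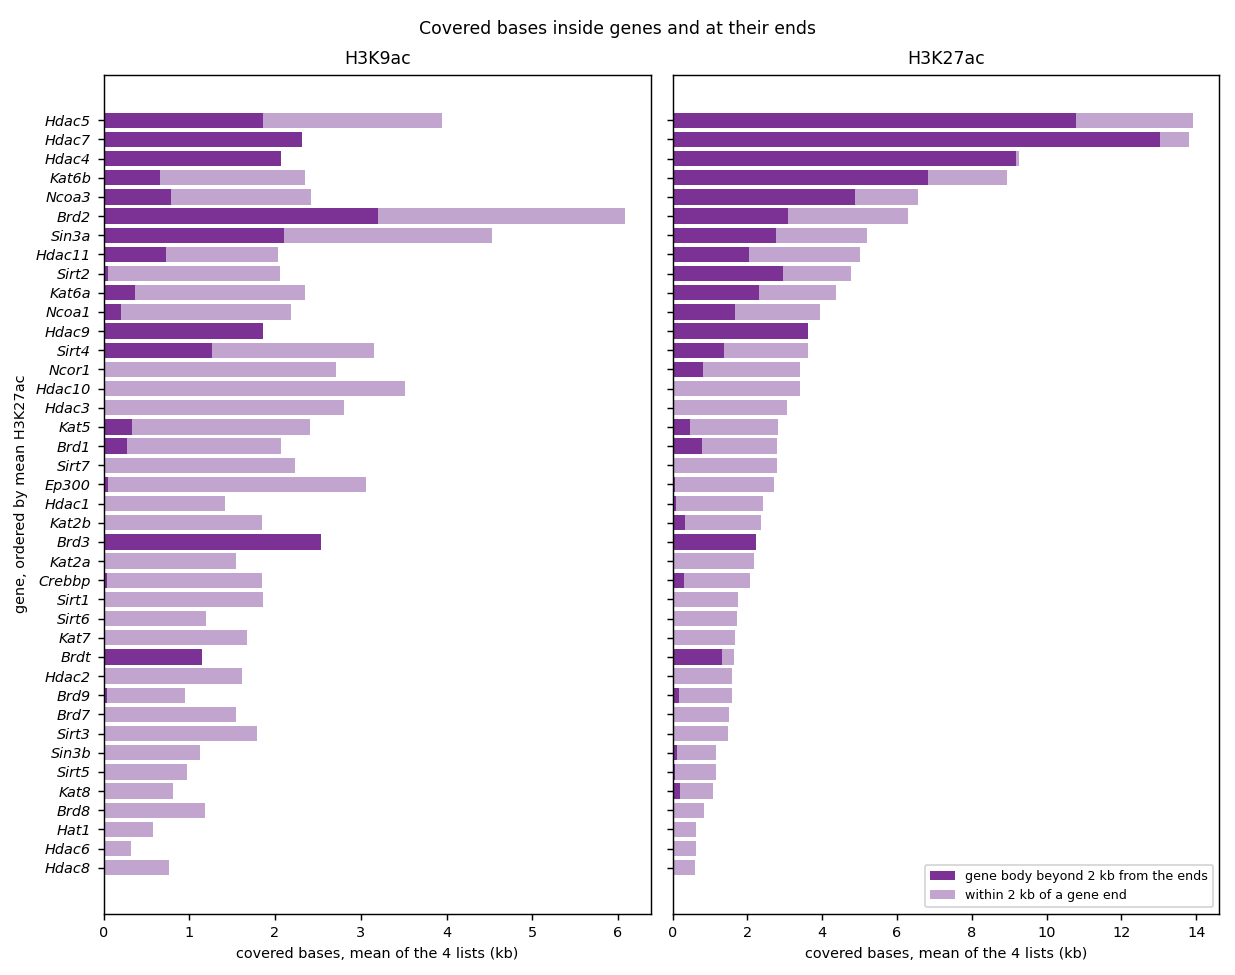
Covered bases (kb, mean of the 4 lists of a mark) split into bases more than 2 kb from either gene end (dark) and bases within 2 kb of an end (light), for H3K9ac (left) and H3K27ac (right). Genes run from the most to the least H3K27ac. With H3K27ac the dark part is 77.5% for Hdac5, 94.3% for Hdac7 and 76.6% for Kat6b, and Hdac2, Hdac3, Sirt1 and Kat2a have none. Some listed starts, as in Hdac4, Hdac7 and Hdac9, lie in the dark part.

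The map of Hdac7 shows which of its 4 listed starts carry the marks. Around the upstream start, H3K9ac had no peak in any list and H3K27ac covered 340 bp in ethanol-treated and 244 bp in untreated knockdown mice, against 0 bp in ethanol-treated and 179 bp in untreated control mice, within 1 kb. At the middle pair of starts both marks were present in every list. At the start nearest the 3′ end H3K27ac covered 863 to 1523 bp in the 4 lists, whereas H3K9ac had a peak in untreated control mice only, of 180 bp. The middle starts had 31 and 35 CpG dinucleotides in their windows, against 6 for the upstream start and 5 for the start nearest the 3′ end.

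**Figure D3:**
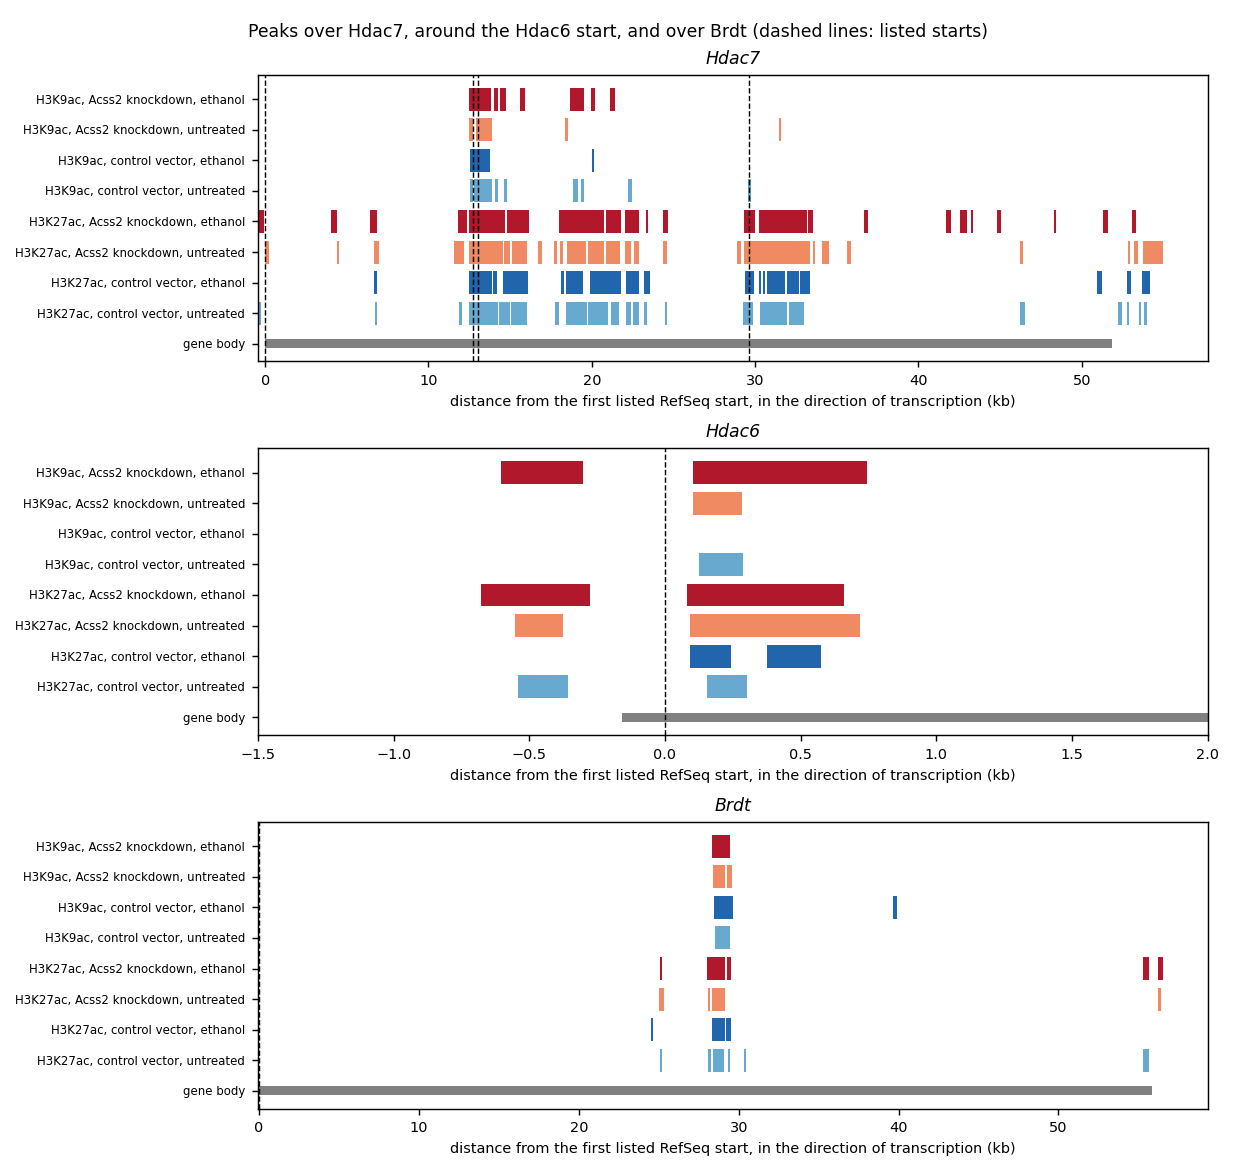
Peaks of each list (bars) over Hdac7, around the start of Hdac6 and over Brdt, by distance in kb from the first listed RefSeq start in the direction of transcription, with listed starts dashed and the gene body in grey. Hdac7 has peaks of both marks at the middle starts in every list. Most of its H3K27ac lies elsewhere, with 1429 to 1860 bp within 1 kb of 1 middle start, of 11736 to 16270 bp drawn. Hdac6 peaks lie on both sides of the start or on the gene's side only, and no H3K9ac is drawn for ethanol-treated control mice. Brdt peaks gather in the middle of the gene.

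Of the remaining HDACs, Hdac6 encodes a cytoplasmic tubulin deacetylase, Hdac10 a polyamine deacetylase and Hdac11 the class IV enzyme. Hdac6, on the X chromosome, had the least H3K9ac of the 40 genes in every list but that of ethanol-treated knockdown mice, with 942 bp in ethanol-treated and 181 bp in untreated knockdown mice, against 0 bp in ethanol-treated and 164 bp in untreated control mice. Its H3K27ac covered 980 bp in ethanol-treated and 806 bp in untreated knockdown mice, against 347 bp in ethanol-treated and 331 bp in untreated control mice. For both marks the ethanol-treated knockdown list was the highest, and both knockdown lists lay above both control lists. No peak covered the start base printed above. Peaks lay on both sides of it in 4 lists, all 3 H3K27ac lists other than that of ethanol-treated control mice and the H3K9ac list of ethanol-treated knockdown mice, and on the gene's side only in the other 3 lists with a peak. On the gene's side the H3K9ac peak spanned 7947146 to 7947785 in ethanol-treated knockdown mice, against 7947602 to 7947765 in untreated control mice. The Hdac6 start lies 256 bp from the start of Gm39488, so the peaks cannot be given to one of the pair. Hdac11 had H3K9ac over 2586 bp in ethanol-treated and 1723 bp in untreated knockdown mice, against 1320 bp in ethanol-treated and 2509 bp in untreated control mice, and H3K27ac over 6360 bp in ethanol-treated and 4825 bp in untreated knockdown mice, against 4810 bp in ethanol-treated and 4087 bp in untreated control mice. H3K9ac over Hdac10 covered 3398 bp in ethanol-treated and 3654 bp in untreated knockdown mice, against 3106 bp in ethanol-treated and 3900 bp in untreated control mice, and H3K27ac covered 4010 bp in ethanol-treated and 3467 bp in untreated knockdown mice, against 3063 bp in ethanol-treated and 3041 bp in untreated control mice; this short gene shares its window with Tubgcp6 and Mapk12.

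The sirtuins divide by where their enzymes work, and their marks lay mainly at the gene ends except for H3K27ac in Sirt2. Sirt1, a nuclear deacetylase, had H3K9ac over 2266 bp in ethanol-treated and 2058 bp in untreated knockdown mice, against 1358 bp in ethanol-treated and 1767 bp in untreated control mice. Its H3K27ac covered 1754 bp in ethanol-treated and 1821 bp in untreated knockdown mice, against 1704 bp in ethanol-treated and 1670 bp in untreated control mice, within 1.09-fold in all lists. Sirt2, a tubulin deacetylase abundant in oligodendrocytes, had the most H3K27ac of the sirtuins, with 5378 bp in ethanol-treated and 5646 bp in untreated knockdown mice, against 4161 bp in ethanol-treated and 3873 bp in untreated control mice. Of this 62.1% lay inside the gene beyond 2 kb from its ends, while 2.7% of its H3K9ac did. H3K9ac over Sirt2 covered 1965 bp in ethanol-treated and 1875 bp in untreated knockdown mice, against 2212 bp in ethanol-treated and 2189 bp in untreated control mice, and was lower in both knockdown lists than in both control lists. The mitochondrial sirtuin genes differed in level. Sirt4 had H3K9ac over 3173 bp in ethanol-treated and 3302 bp in untreated knockdown mice, against 2350 bp in ethanol-treated and 3803 bp in untreated control mice, and H3K27ac over 3608 bp in ethanol-treated and 4225 bp in untreated knockdown mice, against 3236 bp in ethanol-treated and 3371 bp in untreated control mice. Sirt3 had H3K9ac over 1832 bp in ethanol-treated and 1768 bp in untreated knockdown mice, against 1247 bp in ethanol-treated and 2308 bp in untreated control mice, and H3K27ac over 1584 bp in ethanol-treated and 1438 bp in untreated knockdown mice, against 1470 bp in ethanol-treated and 1423 bp in untreated control mice. Untreated control mice were highest for H3K9ac in Sirt3, Sirt4 and Sirt5. Sirt5 covered 980 bp in ethanol-treated and 1023 bp in untreated knockdown mice, against 681 bp in ethanol-treated and 1204 bp in untreated control mice, for H3K9ac, and 1275 bp in ethanol-treated and 978 bp in untreated knockdown mice, against 1053 bp in ethanol-treated and 1293 bp in untreated control mice, for H3K27ac. Sirt6, whose enzyme removes H3K9ac, ranged from 988 to 1336 bp for H3K9ac and from 1400 to 2032 bp for H3K27ac. Sirt7 ranged from 2075 to 2388 bp for H3K9ac and from 2706 to 2992 bp for H3K27ac.

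Among the readers, Brd2, a BET protein that binds acetylated H4, had the most H3K9ac of all 40 genes. H3K9ac over Brd2 covered 6677 bp in ethanol-treated and 5959 bp in untreated knockdown mice, against 5247 bp in ethanol-treated and 6426 bp in untreated control mice. H3K27ac there covered 6777 bp in ethanol-treated and 6159 bp in untreated knockdown mice, against 5655 bp in ethanol-treated and 6624 bp in untreated control mice. H3K9ac filled 35.5% to 45.1% and H3K27ac 38.2% to 45.8% of its 10.8 kb gene and flanks, and its H3K9ac lay between the 98.7 and 99.5 percentiles of genes with H3K9ac. The upstream Brd2 start lies 225 bp from that of H2-DMa. Brd3, another BET gene, had H3K9ac over 2759 bp in ethanol-treated and 2846 bp in untreated knockdown mice, against 1894 bp in ethanol-treated and 2627 bp in untreated control mice, and H3K27ac over 2930 bp in ethanol-treated and 2119 bp in untreated knockdown mice, against 1951 bp in ethanol-treated and 1883 bp in untreated control mice. None of it lay within 2 kb of the annotated ends, and more than 1 in 2 covered bases lay within 1 kb of its listed start, which is inside the annotated gene (H3K9ac 1779 and 1762 bp in ethanol-treated and untreated knockdown mice, against 1625 and 1776 bp in ethanol-treated and untreated control mice).

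Brdt encodes the testis BET protein and had no peak at its start, yet it was not bare. H3K9ac over Brdt covered 1085 bp in ethanol-treated and 1098 bp in untreated knockdown mice, against 1408 bp in ethanol-treated and 979 bp in untreated control mice, and H3K27ac covered 2183 bp in ethanol-treated and 1489 bp in untreated knockdown mice, against 1191 bp in ethanol-treated and 1686 bp in untreated control mice. Every list had H3K9ac and H3K27ac in the middle of the gene, as in the H3K9ac peak from 107359545 to 107360629 on chromosome 5 in ethanol-treated knockdown mice. Small H3K27ac peaks at its far end, 359 and 302 bp wide in ethanol-treated knockdown mice and 204 bp in untreated knockdown mice, against none in ethanol-treated control mice and 350 bp in untreated control mice, were its only gene-end marks.

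The other readers belong to larger complexes. Brd1, a scaffold of HBO1 and MYST complexes, had H3K9ac over 2316 bp in ethanol-treated and 1801 bp in untreated knockdown mice, against 1892 bp in ethanol-treated and 2256 bp in untreated control mice, and H3K27ac over 3508 bp in ethanol-treated and 3185 bp in untreated knockdown mice, against 2279 bp in ethanol-treated and 2220 bp in untreated control mice. Brd7 and Brd9 are subunits of SWI/SNF remodellers. Brd7 had H3K9ac over 1581 bp in ethanol-treated and 1647 bp in untreated knockdown mice, against 1377 bp in ethanol-treated and 1587 bp in untreated control mice, and H3K27ac over 1766 bp in ethanol-treated and 1163 bp in untreated knockdown mice, against 1723 bp in ethanol-treated and 1407 bp in untreated control mice. H3K9ac over Brd9 was the steadiest of all, with 957 bp in ethanol-treated and 982 bp in untreated knockdown mice, against 943 bp in ethanol-treated and 934 bp in untreated control mice. Its H3K27ac was the least steady, with 2650 bp in ethanol-treated and 761 bp in untreated knockdown mice, against 1433 bp in ethanol-treated and 1532 bp in untreated control mice, a 3.48-fold span. The highest list had 8 Brd9 peaks, against 2 to 4 in the others, and the Brd9 start lies 44 bp from that of Trip13. Brd8, of the TIP60 complex, had H3K9ac over 1435 bp in ethanol-treated and 1436 bp in untreated knockdown mice, against 640 bp in ethanol-treated and 1223 bp in untreated control mice, and H3K27ac over 801 bp in ethanol-treated and 846 bp in untreated knockdown mice, against 894 bp in ethanol-treated and 780 bp in untreated control mice. Brd8 H3K9ac in ethanol-treated control mice was less than in any other list, while its H3K27ac there was the highest of the 4.

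The coactivators and corepressors completed the set. Ncoa1 and Ncoa3 encode nuclear receptor coactivators. Ncoa1 had H3K9ac over 2556 bp in ethanol-treated and 2147 bp in untreated knockdown mice, against 1600 bp in ethanol-treated and 2442 bp in untreated control mice, and H3K27ac over 5229 bp in ethanol-treated and 3770 bp in untreated knockdown mice, against 2657 bp in ethanol-treated and 4141 bp in untreated control mice. Ncoa3 had H3K9ac over 3066 bp in ethanol-treated and 2594 bp in untreated knockdown mice, against 1775 bp in ethanol-treated and 2239 bp in untreated control mice, and H3K27ac over 7357 bp in ethanol-treated and 6696 bp in untreated knockdown mice, against 5952 bp in ethanol-treated and 6268 bp in untreated control mice. In both genes the ethanol-treated knockdown list was the highest and the ethanol-treated control list the lowest, for both marks. Ncor1, which encodes the corepressor that activates HDAC3, had H3K9ac over 2786 bp in ethanol-treated and 2976 bp in untreated knockdown mice, against 2469 bp in ethanol-treated and 2610 bp in untreated control mice, and H3K27ac over 5011 bp in ethanol-treated and 2874 bp in untreated knockdown mice, against 2841 bp in ethanol-treated and 2957 bp in untreated control mice. The higher Ncor1 H3K27ac of ethanol-treated knockdown mice came with 11 peaks, against 3 in each other list. Sin3a, a scaffold for HDAC1 and HDAC2, had H3K9ac over 4969 bp in ethanol-treated and 4741 bp in untreated knockdown mice, against 3519 bp in ethanol-treated and 4883 bp in untreated control mice, and H3K27ac over 5558 bp in ethanol-treated and 5391 bp in untreated knockdown mice, against 4979 bp in ethanol-treated and 4853 bp in untreated control mice. Its H3K9ac ranked between the 96.9 and 97.6 percentiles of genes with H3K9ac. Its relative Sin3b had 983 to 1324 bp of H3K9ac and 1012 to 1493 bp of H3K27ac.

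H3K27ac covered more of these genes than H3K9ac in every condition, as it did genome-wide. H3K9ac covered more bases than H3K27ac in 7 genes in ethanol-treated and 14 in untreated knockdown mice, against 5 in ethanol-treated and 16 in untreated control mice. These are 17.5% and 35.0% of the genes for ethanol-treated and untreated knockdown mice, against 12.5% and 40.0% for ethanol-treated and untreated control mice. Over all genes with either mark the shares were 20.4% and 25.2% in ethanol-treated and untreated knockdown mice, against 15.0% and 35.7% in ethanol-treated and untreated control mice. Ep300, Hdac10, Sirt1, Sirt3 and Brd8 had more H3K9ac in 3 of the 4 conditions, and 16 genes, among them all 4 class IIa HDACs, had more in none.

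Ethanol was compared with no treatment within each vector. A gene was called higher or lower where its covered bases differed by at least 1.5-fold and at least 200 bp, and each count stands beside the share of all genes meeting the same rule, since a longer list covers more of every gene. In knockdown mice, H3K9ac covered more bases with ethanol in 24 of the 40 genes (63.9% of all genes) and fewer in 16 (36% of all genes). The called genes were 5 higher (11.4% of all genes), Hdac11, Kat8, Kat2a, Hdac7 and Hdac6, and 1 lower (3.29% of all genes), Hdac8. In control mice the direction was the other way: H3K9ac covered more bases with ethanol in 5 genes (12.2% of all genes) and fewer in 35 (87.8% of all genes). None was called higher (1.04% of all genes) and 13 were called lower (33% of all genes): Crebbp, Kat6a, Hat1, Hdac8, Hdac4, Hdac5, Hdac7, Hdac11, Sirt3, Sirt4, Sirt5, Brd8 and Ncoa1. The median difference, ethanol minus untreated, was 83.5 bp in knockdown mice (108 bp over all genes) and -455.5 bp in control mice (-343 bp over all genes). In each vector the counts were near the genome-wide shares. On the log2 scale the median of all genes was 0.10 in knockdown mice and -0.39 in control mice. When values were divided by the total covered bases of each list, 14 genes had more H3K9ac and 26 fewer in knockdown mice, and 23 more and 17 fewer in control mice, so that both medians changed sign, to -105.7 bp and 96.4 bp. Over all genes that scaling gave 44.3% more and 55.7% fewer in knockdown mice, and 56.9% more and 43.1% fewer in control mice.

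Few of the H3K9ac calls outlasted that scaling. With ethanol in control mice, 1 of the 13 genes called lower was still called, Hdac5 (12.4% of all genes called lower after scaling). Hdac5 had 2225 bp in ethanol-treated and 4892 bp in untreated control mice. Its difference was -2667 bp, and -1770 bp after scaling (1.57-fold lower), and -2083 bp of the unscaled difference lay more than 2 kb from the gene ends. Kat8 and Brdt, not called before scaling, were called higher with ethanol in control mice, 1.81-fold and 2.02-fold (7.18% of all genes). With ethanol in knockdown mice, Hdac7 and Hdac6 were still called higher, 2.12-fold and 4.70-fold (7.72% of all genes). Hdac8 was still called lower there, 1.87-fold (5.30% of all genes). Hdac7 was higher with ethanol in knockdown mice by 2092 bp (1736 bp after scaling) and lower in control mice, by -1258 bp, where scaling left -696 bp and 1.36-fold, short of a call. Hdac11 had the same order, with 863 bp in knockdown mice and -1189 bp in control mice, and scaling ended both calls, leaving 610 bp (1.35-fold higher) and -657 bp (1.35-fold lower). With peaks at or above the median score of their list, Hdac7 differed by 498 bp in knockdown mice and -60 bp in control mice, and Hdac11 by -238 bp in knockdown mice and -962 bp in control mice. Sirt3, Sirt4 and Kat6a, called lower with ethanol in control mice by -1061, -1453 and -1037 bp, were 1.32-fold, 1.15-fold and 1.19-fold lower after scaling and no longer called.

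H3K27ac was compared in the same way. In knockdown mice it covered more bases with ethanol in 33 of the 40 genes (75.1% of all genes) and fewer in 7 (24.9% of all genes). Called genes were 4 higher (13.6% of all genes), Hdac4, Brd7, Ncor1 and Brd9, and 1 lower (1.85% of all genes), Kat8. In control mice it covered more bases with ethanol in 21 genes (44.9% of all genes) and fewer in 19 (54.9% of all genes). There 1 gene was called higher (5.75% of all genes), Kat2a, and 2 lower (6.75% of all genes), Kat8 and Ncoa1. Median differences were 362 bp in knockdown mice (221 bp over all genes) and 10 bp in control mice (-37 bp over all genes), with log2 medians of all genes of 0.18 and -0.04. Scaled to the total covered bases, 16 genes had more and 24 fewer in knockdown mice, with a median of -107.2 bp, and 28 had more and 12 fewer in control mice, with a median of 115.9 bp. Over all genes that scaling gave 40.2% more and 59.8% fewer in knockdown mice, and 55.1% more and 44.9% fewer in control mice. Kat8 was the one gene called lower with ethanol in both vectors, by -554 bp in knockdown mice and -446 bp in control mice. Of these, -530 and -273 bp lay inside the gene. Both calls held after scaling, 1.90-fold in knockdown mice and 1.55-fold in control mice. With peaks at or above the median score of their list, no gene was called lower in either vector (2.50% of all genes in knockdown mice and 7.91% in control mice). Brd9 differed by 1889 bp in knockdown mice, and by 1445 bp after scaling.

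Knockdown was compared with control vector within each treatment, and these comparisons use the same lists as the ethanol comparisons. In ethanol-treated mice, H3K9ac covered more bases with the knockdown in 37 of the 40 genes (89.9% of all genes) and fewer in 3 (10.1% of all genes). Called higher were 15 genes (37.4% of all genes): Crebbp, Kat2a, Kat6a, Hat1, Hdac8, all 4 class IIa genes, Hdac6, Hdac11, Sirt1, Brd8, Ncoa1 and Ncoa3. None was called lower (0.913% of all genes). In untreated mice, H3K9ac covered more bases with the knockdown in 14 genes (43.8% of all genes) and fewer in 26 (56% of all genes), with Hdac8 alone called higher (4.2% of all genes) and Hdac7 alone called lower (9.22% of all genes). Median differences, knockdown minus control, were 435.5 bp in ethanol-treated mice (387 bp over all genes) and -162.5 bp in untreated mice (-45 bp over all genes). The log2 medians of all genes were 0.44 and -0.04. Scaling left 15 genes with more and 25 with fewer in ethanol-treated mice, a median of -96.6 bp, and 16 with more and 24 with fewer in untreated mice, against all genes, of which 40.5% had more and 59.5% fewer in ethanol-treated mice, and 51.4% more and 48.6% fewer in untreated mice. The 15 called genes in ethanol-treated mice are near the genome-wide share of 37.4%.

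H3K27ac over these genes was more extensive with the knockdown in both treatments, as it was genome-wide, and in both, again as genome-wide, more genes had less of it than more once values were divided by the total covered bases. In ethanol-treated mice it covered more bases in 38 of the 40 genes (86.3% of all genes) and fewer in 2 (13.6% of all genes). Called higher were 10 genes (30.6% of all genes), Kat7, Hdac1, Hdac4, Hdac6, Brd1, Brd3, Brd9, Brdt, Ncoa1 and Ncor1, and none lower (1.14% of all genes). In untreated mice it covered more in 29 genes (71% of all genes) and fewer in 11 (28.8% of all genes), with Kat2a and Hdac6 called higher (12.8% of all genes) and Hat1 and Brd9 called lower (2.3% of all genes). Median differences were 655 bp in ethanol-treated mice (379 bp over all genes) and 335 bp in untreated mice (168.5 bp over all genes), with log2 medians of all genes of 0.35 and 0.15. After scaling, 9 genes had more and 31 fewer in ethanol-treated mice, a median of -355.5 bp, and 14 more and 26 fewer in untreated mice, a median of -94.2 bp. Over all genes that scaling gave 32.6% more and 67.4% fewer in ethanol-treated mice, and 38.5% more and 61.5% fewer in untreated mice. Hdac6 was called in both treatments, 2.82-fold in ethanol-treated and 2.44-fold in untreated mice, with differences of 633 and 475 bp (304 and 346 bp after scaling). Hdac4 differed by 5433 bp in ethanol-treated mice, all inside the gene, and by 850 bp after scaling and 363 bp between lists cut to equal length.

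**Figure D4:**
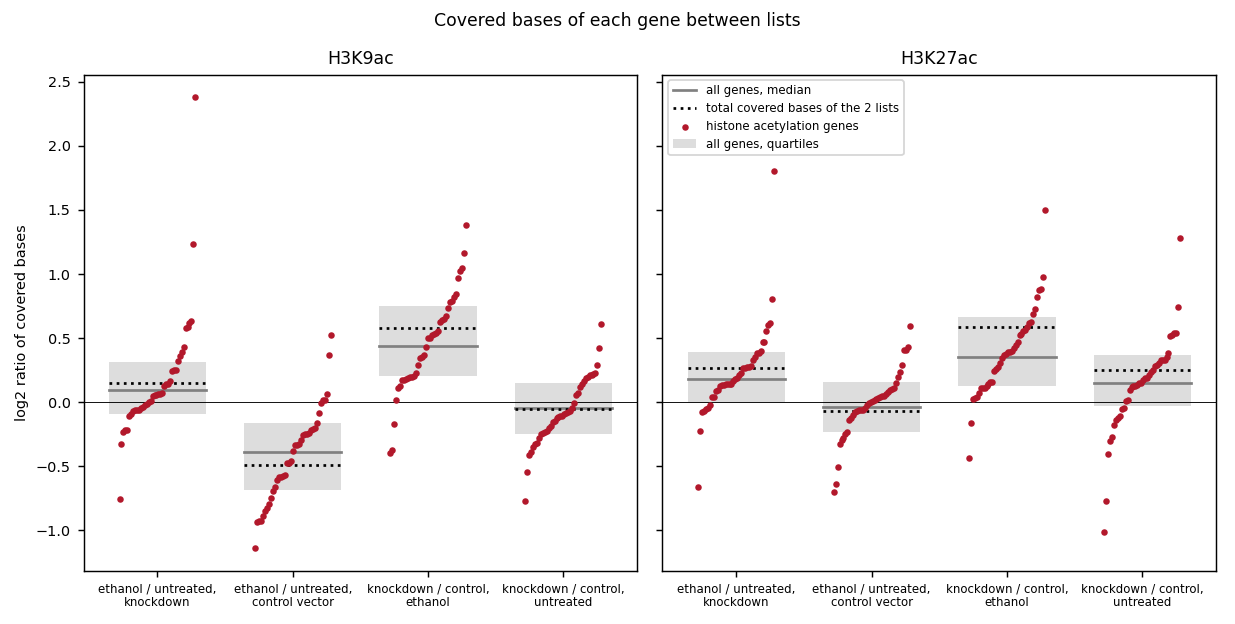
Log2 ratio of covered bases for each of the histone acetylation genes (red points, ordered by value; genes with 0 bp in either list left out) in the 4 comparisons of H3K9ac (left) and H3K27ac (right), with the quartiles (grey box) and median (grey line) of all genes and the ratio of the total covered bases of the lists (dotted). Points centre near the grey lines, whose medians run from -0.39 to 0.44 for H3K9ac. The topmost points are Hdac6 for H3K9ac and Brd9 for H3K27ac in ethanol over untreated knockdown mice. Divided by the dotted ratio, every grey median changes sign, and most medians of the red points do.

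Gains and losses of a whole gene-end peak were rare. Between 34 and 35 of the 40 genes had an H3K9ac peak within 1 kb of a gene end in each list, and between 36 and 38 an H3K27ac peak. Over all coding genes the shares were 55.15% to 58.75% for H3K9ac and 61.24% to 64.1% for H3K27ac. With ethanol in knockdown mice no gene gained (3.97% of genes with an end peak in either list) or lost (1.91%) an H3K9ac end peak. With ethanol in control mice 1 gene lost its H3K9ac end peak, Hdac6 (6.14%), and none gained one (1.03%). The Hdac6 peak was 164 bp wide in untreated control mice, with a score at the 43.9 percentile of that list. Between ethanol-treated knockdown and ethanol-treated control mice Hdac6 gained one (7.05%) and none lost one (0.97%). In untreated mice no gene gained (2.27%) or lost (3.32%) an H3K9ac end peak with the knockdown. For H3K27ac, Brdt lost its end peak with ethanol in control mice (2.49%; gains 0 of 37 genes, 2.74%) and gained it in ethanol-treated knockdown over ethanol-treated control mice (5.17%; losses 0 of 37 genes, 0.995%). Hdac4 had an end peak of 317 bp in untreated knockdown mice only, so that it counted as lost with ethanol in knockdown mice (1.4%; gains 0 of 38 genes, 3.7%) and as gained with the knockdown in untreated mice (3.85%; losses 0 of 38 genes, 1.71%).

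Peaks were also compared one by one, a counterpart being any overlapping peak in the other list. Of the 119 H3K9ac peaks of ethanol-treated control mice in these windows, 109 (91.6%, 95% Wilson interval 85.2% to 95.4%) overlapped a peak of untreated control mice, against 88.3% of all peaks. Of the 123 peaks of untreated control mice, 89 (72.4%, 63.9% to 79.5%) overlapped one of ethanol-treated control mice, against 62.0% of all peaks. In knockdown mice, 100 of 135 H3K9ac peaks with ethanol (74.1%, 66.1% to 80.7%, all peaks 68.4%) and 112 of 133 without (84.2%, 77.1% to 89.4%, all peaks 78.7%) had a counterpart in the other list. For H3K27ac the shares were 61.4% of 316 peaks in ethanol-treated knockdown mice (55.9% to 66.6%, all peaks 61.4%) and 77.4% of 265 in untreated knockdown mice (71.9% to 82.0%, all peaks 76.2%). In control mice they were 72.8% of 246 H3K27ac peaks with ethanol (66.9% to 77.9%, all peaks 69.5%) and 70.6% of 252 without (64.7% to 75.9%, all peaks 65.5%). These intervals cover counting error only and treat peaks as independent, although peaks cluster within genes. Hdac4 alone held 42 of the 316 H3K27ac peaks of ethanol-treated knockdown mice. The intervals are therefore no test of these genes against all peaks.

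Markers of cell types moved between the lists as well, but not all in the same order or for both marks. The 5 excitatory neuron markers had a summed H3K9ac of 26991 bp in ethanol-treated and 17863 bp in untreated knockdown mice, against 9374 bp in ethanol-treated and 19098 bp in untreated control mice, with Neurod6 at 0 in ethanol-treated control mice. Their H3K27ac sums were 52887 and 43788 bp in ethanol-treated and untreated knockdown mice, against 33375 and 40543 bp in ethanol-treated and untreated control mice. The 4 oligodendrocyte markers (Mbp, Mog, Mag and Sox10) summed to 8797 and 4558 bp of H3K9ac in ethanol-treated and untreated knockdown mice, against 6300 and 11282 bp in ethanol-treated and untreated control mice, with Mog and Mag at 0 in untreated knockdown mice. Their H3K27ac sums were 42468 and 40099 bp in ethanol-treated and untreated knockdown mice, against 40192 and 38112 bp in ethanol-treated and untreated control mice. H3K27ac was highest in ethanol-treated control mice for Sox10 and Mag, in ethanol-treated knockdown mice for Mbp and in untreated knockdown mice for Mog. The 4 astrocyte markers summed to 6694 and 4946 bp of H3K9ac in ethanol-treated and untreated knockdown mice, against 1476 and 4098 bp in ethanol-treated and untreated control mice, with Gfap at 0 in ethanol-treated control mice and Aqp4 at 0 in every list but that of ethanol-treated knockdown mice. Their H3K27ac summed to 14320 and 8948 bp in ethanol-treated and untreated knockdown mice, against 8285 and 8350 bp in ethanol-treated and untreated control mice. The 3 microglia markers had no H3K9ac in any list, and their H3K27ac sums ran from 1148 to 1355 bp. Gad1 was the one inhibitory neuron marker with H3K9ac. It had 2282 and 1954 bp in ethanol-treated and untreated knockdown mice, against 433 and 2090 bp in ethanol-treated and untreated control mice. H3K9ac of the endothelial markers Cldn5 and Pecam1 summed to 824 and 638 bp in ethanol-treated and untreated knockdown mice. In ethanol-treated and untreated control mice it summed to 181 and 254 bp. The part of these shifts in the values of the 40 genes was not tested.

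Other genes of the same machinery, 88 subunits and relatives outside the 40, were counted in the same way. Percentages beside these counts are shares of all genes. With ethanol in knockdown mice, H3K9ac covered more bases in 57 of them (63.9%) and fewer in 31 (36%). There 5 were called higher (11.4%) and 1 lower (3.29%). With ethanol in control mice it covered more in 7 (12.2%) and fewer in 81 (87.8%), with 0 called higher (1.04%) and 20 lower (33%). With the knockdown in ethanol-treated mice, H3K9ac covered more in 79 (89.9%) and fewer in 9 (10.1%), with 23 called higher (37.4%) and 0 lower (0.913%). In untreated mice it covered more in 39 (43.8%) and fewer in 49 (56%), with 0 called higher (4.2%) and 3 lower (9.22%). The H3K27ac counts with ethanol were 73 more (75.1%) and 15 fewer (24.9%) in knockdown mice, and 33 more (44.9%) and 55 fewer (54.9%) in control mice. With the knockdown they were 83 more (86.3%) and 5 fewer (13.6%) in ethanol-treated mice, and 54 more (71%) and 34 fewer (28.8%) in untreated mice. The largest single H3K9ac difference was in Zmynd8, a bromodomain reader, where the mark covered 16423 bp in ethanol-treated and 13290 bp in untreated knockdown mice, against 6569 bp in ethanol-treated and 12657 bp in untreated control mice. Dpf3, a reader of the BAF remodeller, had H3K27ac over 13898 bp in ethanol-treated and 12468 bp in untreated knockdown mice, against 6325 bp in ethanol-treated and 9993 bp in untreated control mice.

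Many of these windows also hold other genes. Another coding gene overlapped the window of 23 of the 40 genes, and the start of another gene lay within 1 kb of a listed start for 11, among them Sirt2 (108 bp from Nfkbib), Sirt3 (85 bp from Psmd13) and Sin3a (74 bp from Gm10658). Peaks in such windows cannot be given to one gene of the pair.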

How the data were processed

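Chromatin immunoprecipitation for H3K9ac and H3K27ac was sequenced from mouse dorsal hippocampus, in 24 immunoprecipitated and 12 input samples. Per the submitters' processing notes, the tools were MACS2, STAR (2.5.2a), bcl2fastq and bedtools, and the build was GRCm38. Each deposited list gives peaks with a score read as the authors' −log10 q, since the labels give a false discovery rate of 0.001 and no score is below 3.00. Each list carries no depth, and 1 list stands for the 3 replicates of a group; the labels do not say how they were joined. Samples were grouped by the labels' vector, treatment and mark, and no table column was left unmapped (0).

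Merged peaks were intersected with RefSeq gene bodies (GRCm38.p6) and 2 kb flanks, and covered bases counted for every coding gene, with Python 3.11.15, numpy 2.4.6, pandas 2.3.3, scipy 1.17.1 and matplotlib 3.10.9. A call needed a 1.5-fold and 200 bp difference, and all genes covered in either list formed the background. With 1 list a group there was no test and no replicate error. Intervals on shares are 95% Wilson intervals. Alternatives were other windows, list lengths, scores, scaling, fold, end distance and overlap. The members and lists were chosen with earlier results of these data known. All members are named, with all 8 values for the most covered of each role, the largest differences and a set of main enzymes. Input samples were not analysed here. The values of 1 further gene of the pathway are not reported here.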

Additional observations from a re-analysis of the deposited data

Results flagged for a closer look

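Ethanol-treated and untreated mice differed in opposite directions in the 2 vectors for H3K9ac over a pair of genes. Over Hdac7, ethanol minus untreated was 2092 bp in knockdown mice and -1258 bp in control mice. Over Hdac11 it was 863 bp in knockdown mice and -1189 bp in control mice. Both genes were called higher in knockdown mice and lower in control mice, with 1 list a group. Scaled to total covered bases, the Hdac7 call in knockdown mice held (2.12-fold) and the other 3 calls ended (Hdac7 1.36-fold lower in control mice, Hdac11 1.35-fold higher in knockdown and 1.35-fold lower in control mice). With peaks at or above the median score, Hdac11 in knockdown mice turned to -238 bp and Hdac7 in control mice came to -60 bp. The difference between the vectors was not tested.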

How the results depend on the processing

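Of 232 values that answer a comparison, 163 kept their direction and size class under the alternatives, as did 287 of 510 others. No paired analysis was possible because 1 list stands for the 3 replicates of each group, and no replicate could be left out. Depth is unknown. The cause of the shifts was not tested. Counts are of genes, KD is knockdown over control vector, and E is ethanol over untreated. Percentages in brackets are shares of all genes covered in either list under the same setting. Counts of end peaks gained or lost, and shares of peaks with a counterpart, are given below for these genes only. No value for all genes or all peaks stands beside them, so they allow no comparison with the genome.

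Within 2 kb of gene ends, H3K9ac gave E in knockdown mice a median of -1.0 bp and 3 called higher (9.94%). E in control mice gave 7 called lower (27.4%), KD with ethanol 9 called higher (30.0%) and KD untreated 0 called lower (8.71%). H3K27ac gave E in knockdown mice a median of 177 bp and Hdac4 -317 bp, E in control mice 1 called lower (5.04%) and KD with ethanol 4 called higher (18.5%).

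Beyond 2 kb from the ends, H3K9ac gave E in knockdown mice 14 with more (63.1%), and E in control mice 15 with fewer (84.4%) and 7 called lower (46.7%). KD with ethanol gave 16 with more (87.6%), and KD untreated 12 with fewer (53.3%) and 3 called lower (18.2%). H3K27ac gave E in knockdown mice 21 with more (76.6%) and 9 called higher (29.8%), and E in control mice 7 with more (44.5%) and a median of -192 bp. KD with ethanol gave 24 with more (85.5%), and KD untreated 15 with more (72.5%) and 4 called higher (28.2%).

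With lists of equal length, H3K9ac KD untreated had 2 called lower (10.3%). H3K27ac E in knockdown mice had a median of 170.5 bp, 2 called higher (10.7%) and Hdac4 at -128 bp. E in control mice had 0 end peaks gained or lost and KD untreated 2.

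With peaks at or above the median score, H3K9ac E in knockdown mice gave Hdac11 -238 bp and 1 end peak gained or lost. E in control mice gave 0 end peaks gained or lost, KD with ethanol 2 and KD untreated 1. KD untreated also had 2 called lower (11.5%) and Hdac7 at 69 bp. H3K27ac E in knockdown mice gave 2 end peaks gained or lost, and E in control mice 0, with 0 called lower (7.91%). KD with ethanol gave 5 called higher (28.5%) and Brd9 -69 bp, and KD untreated 7 called higher (14.5%).

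Scaled to total covered bases, H3K9ac E in knockdown mice gave 14 with more (44.3%), a median of -105.7 bp and 2 called higher (7.72%). E in control mice gave 17 with fewer (43.1%), a median of 96.4 bp and 1 called lower (12.4%). KD with ethanol gave 15 with more (40.5%), a median of -96.6 bp and 2 called higher (11.0%). H3K27ac E in knockdown mice gave 16 with more (40.2%), a median of -107.2 bp and 1 called higher (6.27%). E in control mice gave a median of 115.9 bp and 1 called lower (5.54%). KD with ethanol gave 9 with more (32.6%), a median of -355.5 bp, 1 called higher (8.96%) and Brd3 -3 bp. KD untreated gave 14 with more (38.5%), a median of -94.2 bp and 1 called higher (6.4%).

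At 2-fold, H3K9ac gave 2 called higher for E in knockdown mice (5.48%) and 1 called lower for E in control mice (14.6%). It gave 5 called higher for KD with ethanol (17.2%) and 0 called lower for KD untreated (4.72%). H3K27ac gave 1 called higher for E in knockdown mice (5.46%), KD with ethanol (14.3%) and KD untreated (5.42%), and 0 called lower for E in control mice (2.63%). At 500 bp from an end, H3K27ac gave 2 end peaks gained or lost for E in control mice and 2 for KD with ethanol. Where overlap had to span at least 50% of the shorter peak, H3K27ac counterparts were 71.7% in untreated knockdown mice, 66.7% in ethanol-treated control mice and 64.3% in untreated control mice, each against the other treatment.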
